A study of Drosophila melanogaster with 6 samples.

Results

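The genes examined were 7 peptidoglycan recognition proteins (PGRPs) of *Drosophila melanogaster* that sense bacterial cell walls or pass the signal on, namely PGRP-LA, PGRP-LC, PGRP-LD, PGRP-LE, PGRP-LF, PGRP-SA and PGRP-SD. They were taken by gene symbol and make up 7 of the 15656 genes in the table. Whole adult males were sequenced after selection of poly(A) RNA, 12 h after *E. coli* had been injected into the thorax. There were 3 libraries of overexpressing males, with the genotype Gal80ts; Tub>lncRNA-CR33942, and 3 of control males, whose genotype was Gal80ts; Tub-Gal4/P{CaryP}attP40. Both groups were 3 to 5 d old, were reared at 18°C and spent more than 24 h at 29°C, which releases the Gal4 driver from its temperature-sensitive repressor Gal80ts. The control flies also carry the driver, with the attP40 landing site and no lncRNA construct. Tub is a tubulin promoter active in nearly every cell, so overexpression was not limited to immune tissue. Effects of the lncRNA, of the construct as a whole and of any other genetic difference between the strains cannot be told apart. No uninfected flies were analysed here, so the values describe infected flies of both genotypes and not the induction by infection. The study's methods name 3 independent biological replicates for its experiments in general. The labels do not say whether the libraries of a group came from separate cohorts of flies. The p-values therefore measure the spread between libraries, which may be technical in part.

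Flies recognise peptidoglycan, the polymer of bacterial cell walls, through PGRPs. Peptidoglycan of the diaminopimelic acid (DAP) type, found in Gram-negative bacteria such as *E. coli*, activates the Imd pathway, whose NF-κB factor Relish drives antimicrobial peptide (AMP) genes. PGRP-LC is the main transmembrane receptor of Imd, PGRP-LE senses DAP-type fragments inside cells and in the hemolymph, and PGRP-LF is a membrane protein that inhibits PGRP-LC. PGRP-LA is a membrane-bound relative that modulates Imd in barrier epithelia, and PGRP-LD is a membrane PGRP whose role is little described. The secreted PGRP-SA senses lysine-type peptidoglycan of Gram-positive bacteria for the Toll pathway together with GNBP1, and the secreted PGRP-SD assists both pathways. Other PGRPs are amidases that cut peptidoglycan and thereby dampen or end the response.

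The libraries held between 16894595 and 19423287 reads, and the deposited values were read counts divided by a size factor of each library (0.931 to 1.06), called normalized read counts here. The overexpressed gene, listed under its older symbol pncr016:2R, had 177 to 210 normalized read counts in the control libraries and 4452 to 4914 in the overexpression libraries. Every library therefore matched its label. The label of male flies was checked too. Of the 4 female markers, Yp1, Yp2 and Vm26Ab had at most 7.52 normalized read counts in any library, while Yp3 had 841 ± 17.5 in control and 391 ± 153 in overexpressing flies (SD, n = 3 each). All 4 male reproductive markers were abundant, with summed levels of 16558 to 17947 in control and 15466 to 16442 in overexpression libraries.

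Of the 7 genes, 3 rose in the overexpressing flies. PGRP-SD rose 1.57-fold, PGRP-LC 1.31-fold and PGRP-LA 1.24-fold, each with every overexpression library above every control library. PGRP-LF and PGRP-SA had positive fold changes that did not pass the test, PGRP-LE had almost equal means, and PGRP-LD had too few reads to be tested. Genes were compared with limma on log2(normalized count + 1), a scale on which changes of genes with few reads come out too small, and were called at a Benjamini-Hochberg adjusted p under 0.05 over the 13196 genes whose mean level reached 0.5 FPKM (reads per length and library size). Of the 6 PGRPs tested, 3 were called higher and 0 lower. For comparison, 3.18% of all genes tested were called higher and 5.24% lower. Of these calls 37.8% were higher (420 higher and 691 lower), but 55.7% were when reads were scaled to the library total (632 and 503). The groups did not overlap, with overexpression higher, for 4 of the 6, against 12.9% of all genes tested. The median log2 fold change of the 6 was 0.35, beside 0.0059 over all genes. Without the intensity trend in limma, which called 94 genes higher in all, none of the 3 calls held (adjusted p = 0.059 for PGRP-SD, 0.106 for PGRP-LC and 0.13 for PGRP-LA), while edgeR and DESeq2 on the recovered reads called all 3.

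**Figure D1:**
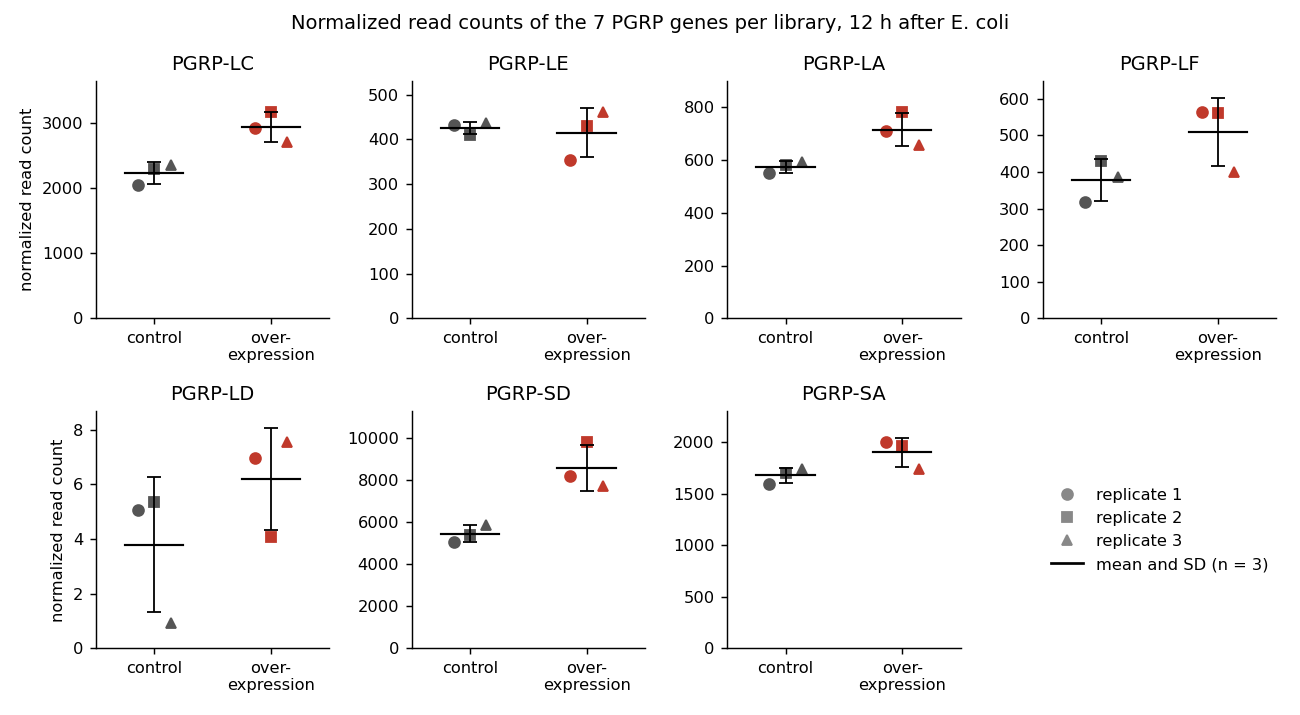
Normalized read counts (vertical axes, linear from 0) of the 7 PGRP genes in each control (grey) and overexpression (red) library. Symbols mark replicate numbers, and lines with bars give the mean and SD of 3 libraries. PGRP-SD, PGRP-LC, PGRP-LA and PGRP-SA show no overlap between the groups, and PGRP-LF, PGRP-LE and PGRP-LD do.

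PGRP-LC, the receptor at the head of the Imd pathway (FBgn0035976), lies on chromosome arm 3L, 9338810 to 9348336 on the plus strand of dm6. The annotation gives it 10 transcripts with proteins of 8 different lengths from 329 to 520 residues, and the gene count does not tell these isoforms apart. It had 2043, 2299 and 2353 normalized read counts in the control libraries. In the overexpression libraries it had 2917, 3169 and 2707. The lowest overexpression library thus exceeded the highest control library. The group means were 2231 ± 166 and 2931 ± 231 (SD, n = 3 each), which gave a log2 fold change of 0.39 with a standard error of 0.068 (95% interval 0.25 to 0.54, limma adjusted p = 0.00351).

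PGRP-LE, the sensor that also works inside cells (FBgn0030695), lies on the X chromosome, 15801153 to 15803880 on the minus strand, and both of its transcripts encode a protein of 345 residues. The control libraries had 432, 409 and 436 normalized read counts, and the overexpression libraries 354, 430 and 461. The groups overlapped, and the overexpression libraries held both the lowest and the highest value of all 6. The log2 fold change was -0.04 (standard error 0.097, limma adjusted p = 0.838). Its 95% interval of -0.25 to 0.17 leaves room for a modest change either way. Leaving out overexpression replicate 1, the lowest library, turned the sign, to 0.066.

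The ratio of PGRP-LC to PGRP-LE within a library does not depend on the scaling between libraries. It was 4.72, 5.60 and 5.39 in the control libraries and 8.21, 7.35 and 5.86 in the overexpression libraries. All 3 overexpression values were above all 3 control values, although overexpression replicate 3 was close to the highest control. The mean log2 ratio was 0.44 higher in overexpression, with a two-sided exact permutation p = 0.1 (0.15 after Benjamini-Hochberg adjustment over the 3 ratios tested). That is the smallest p that 3 libraries against 3 can give, so this design could not reach 0.05.

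PGRP-LF, the inhibitor of PGRP-LC (FBgn0035977), lies downstream of it at 9349609 to 9351489 on the plus strand of 3L, with 1 transcript for a protein of 369 residues. It had 318, 431 and 387 normalized read counts in the control libraries and 564, 560.3 and 401 in the overexpression libraries. Overexpression replicates 1 and 2 lay above every control, while overexpression replicate 3 lay below control replicate 2. The log2 fold change of 0.42 was close to that of PGRP-LC, but its standard error was 0.14 and the limma adjusted p was 0.0821 (95% interval 0.12 to 0.71). The call depended on single libraries, since PGRP-LF passed without overexpression replicate 3 (log2 fold change 0.58, limma adjusted p = 0.0127) and without control replicate 2 (0.52, adjusted p = 0.0378). DESeq2 on the recovered reads, an alternative tool, also called it (0.43, adjusted p = 0.0375), while edgeR did not (adjusted p = 0.0755). In limma it did not pass when any other single library was left out (adjusted p from 0.166 to 0.308).

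Part of the PGRP-LF count could not be assigned to a strand. Of its exon bases, 602 (44.4%) are shared with the far end of UGP on the opposite strand, and the sources used here do not say whether reads were counted by strand. UGP, which encodes a UDP-glucose pyrophosphorylase, had 6704 ± 518 normalized read counts in control and 5825 ± 920 in overexpressing flies (log2 fold change -0.21, limma adjusted p = 0.216). The signs of the fold changes of UGP and PGRP-LF were thus opposite, and the part of UGP reads in the PGRP-LF count was not tested.

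The ratio of the receptor to its inhibitor, PGRP-LC to PGRP-LF, was 6.41, 5.32 and 6.07 in the control and 5.17, 5.65 and 6.74 in the overexpression libraries. The groups overlapped fully, and the mean log2 ratio differed by -0.03 (two-sided exact permutation p = 0.9, 0.9 after adjustment over the 3 ratios). The log2 SDs were 0.14 and 0.19 (n = 3 each), larger than the difference.

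**Figure D2:**
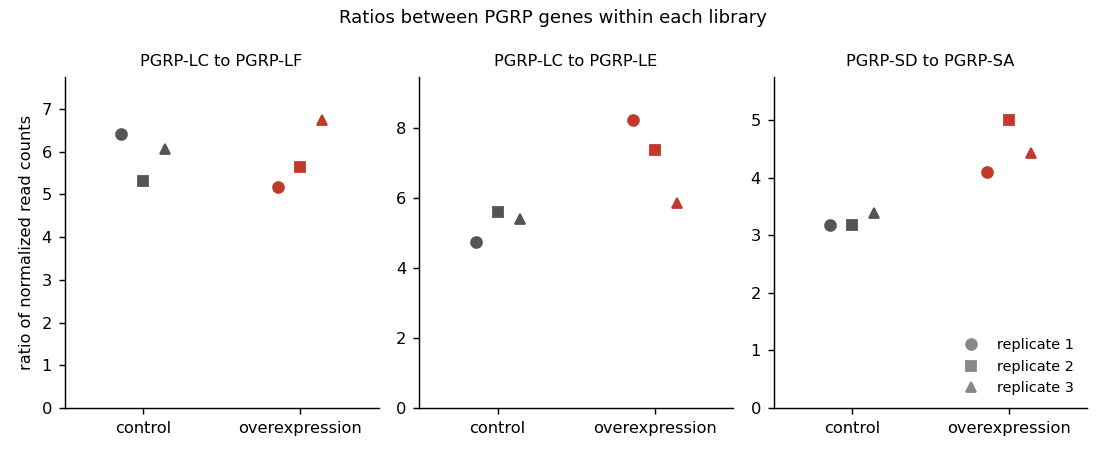
Ratios of normalized read counts between pairs of PGRP genes within each library (vertical axes, linear from 0), for control (grey) and overexpression (red), with symbols for replicate numbers. PGRP-LC to PGRP-LF lay between 5.17 and 6.74 in all 6 libraries with both groups mixed, while the groups were separate for PGRP-LC to PGRP-LE and for PGRP-SD to PGRP-SA.

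PGRP-LA, the relative of PGRP-LC active in barrier epithelia (FBgn0035975), lies just upstream of PGRP-LC at 9334332 to 9338336 on the plus strand of 3L. Its 5 transcripts encode proteins of 138 to 368 residues. The control libraries had 549.6, 582 and 592 normalized read counts, close together, and the overexpression libraries 709, 783 and 657. The groups did not overlap. With means of 575 ± 22.1 and 716 ± 63.5 (SD, n = 3 each), the log2 fold change was 0.31 with a standard error of 0.075 (95% interval 0.15 to 0.48, limma adjusted p = 0.022). This was the least stable of the 3 calls, since it was lost without control replicate 1 (adjusted p = 0.104), control replicate 3 (0.0555), overexpression replicate 1 (0.0577) or overexpression replicate 2 (0.0745), with fold changes of 0.25 to 0.34 on the log2 scale.

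PGRP-LA, PGRP-LC and PGRP-LF stand in a row on the same strand within 17158 bases of 3L. The gap between PGRP-LA and PGRP-LC is 473 bases and that between PGRP-LC and PGRP-LF 1272 bases. All 3 had positive fold changes of 0.31, 0.39 and 0.42 on the log2 scale, of which the first 2 passed the test. The nearest listed genes that do not overlap the row did not pass, but their fold changes were imprecise. GluRIB, 45809 bases to the left of PGRP-LA, had a log2 fold change of 0.06 (standard error 0.22, limma adjusted p = 0.898). CG32040 to the right of PGRP-LF had 0.14 (standard error 0.25, adjusted p = 0.798). With such standard errors, neither GluRIB nor CG32040 can show whether changes of the size seen in the row stop at its ends. UGP, which overlaps the end of PGRP-LF on the other strand and runs past it, had a log2 fold change of -0.21. Its standard error was smaller, at 0.097 (limma adjusted p = 0.216). On 3L as a whole, 2.64% of 2577 genes tested were called higher.

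**Figure D3:**
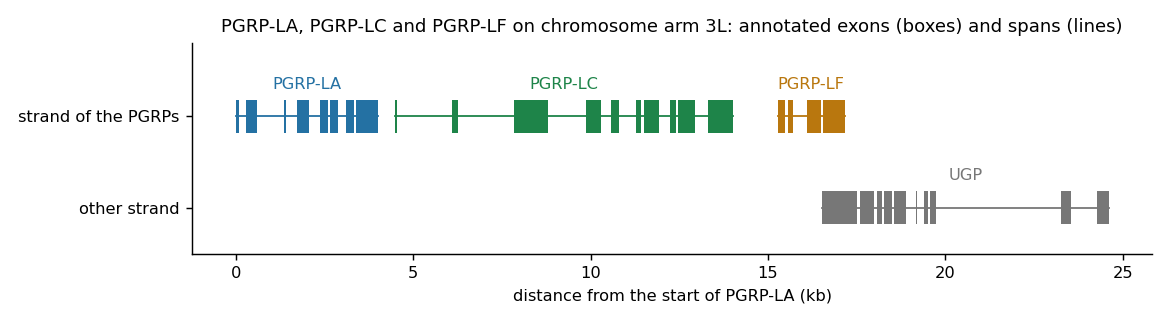
Annotated exons (boxes) and gene spans (lines) of PGRP-LA, PGRP-LC and PGRP-LF on 1 strand and of UGP on the other strand (vertical axis), against the distance in kb from the start of PGRP-LA (horizontal axis). The 3 PGRP genes follow each other with gaps of 473 and 1272 bases, and the last exon of PGRP-LF lies opposite UGP exons over 602 bases.

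PGRP-LD (FBgn0260458), also on 3L at 5780051 to 5784685 on the plus strand, had a read count at the limit of detection. It drew 5, 5 and 1 reads in the control libraries and 7, 4 and 8 in the overexpression libraries. The group sums of 11 and 19 reads have exact 95% Poisson intervals of 5.49 to 19.7 and 11.4 to 29.7, which overlap and cover counting error only. At 0.053 and 0.088 FPKM it fell below the minimum for testing, and without that filter limma gave a log2 fold change of 0.73 with a standard error of 0.55 (adjusted p = 0.519). A difference in PGRP-LD was not detectable with so few reads. Moreover, 90.0% of its exon bases are shared with Pmi on the same strand, which was not analysed here, so how many reads of this locus were left to PGRP-LD depends on a counting setting that the sources used here do not give.

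The secreted sensors were the most abundant of the 7. PGRP-SD (FBgn0035806), which assists PGRP-SA in Toll signalling and promotes Imd signalling through PGRP-LC, is a single-exon gene at 7651180 to 7651900 on the plus strand of 3L and encodes 186 residues. The control libraries had 5071, 5391 and 5871 normalized read counts, and the overexpression libraries 8192, 9808 and 7723. Even the lowest overexpression library was well above the highest control library. Means were 5445 ± 403 and 8574 ± 1094 (SD, n = 3 each), and the log2 fold change was 0.65 with a standard error of 0.081 (95% interval 0.47 to 0.83, limma adjusted p = 0.000376). The call held without each of the 6 libraries in turn, with log2 fold changes of 0.55 to 0.72. PGRP-SD lies within an intron of CG32373 and shares 35 bases with CG7492 on the opposite strand. Neither of those genes passed the test, with log2 fold changes of 0.04 (limma adjusted p = 0.918) and 0.07 (adjusted p = 0.498).

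PGRP-SA (FBgn0030310), the sensor of lysine-type peptidoglycan, lies on the X chromosome at 11561643 to 11562779 on the plus strand, with 2 transcripts for a protein of 203 residues. The control libraries had 1592, 1698 and 1736 normalized read counts, and the overexpression libraries 1998, 1962 and 1739.9. Overexpression replicate 3 lay only just above control replicate 3, the highest control, so the groups were barely apart. The log2 fold change was 0.18 (standard error 0.062, 95% interval 0.045 to 0.31, limma adjusted p = 0.1). Without overexpression replicate 3 PGRP-SA passed the test (0.24, adjusted p = 0.03), and it also passed when reads were scaled to the library total (0.22, adjusted p = 0.0446), a scaling that put the median over all genes at 0.046. It did not pass in DESeq2 (adjusted p = 0.145), nor in limma when any other single library was left out (adjusted p from 0.142 to 0.323).

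The ratio of PGRP-SD to PGRP-SA was 3.18, 3.17 and 3.38 in the control libraries, a narrow range. It was 4.10, 5.00 and 4.44 in the overexpression libraries, all above the controls. The mean log2 ratio was 0.47 higher in overexpression (two-sided exact permutation p = 0.1, the smallest this design allows, and 0.15 after adjustment over the 3 ratios). The difference was larger than the log2 SDs of 0.051 and 0.14 (n = 3 each), but the test could not reach 0.05.

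**Figure D4:**
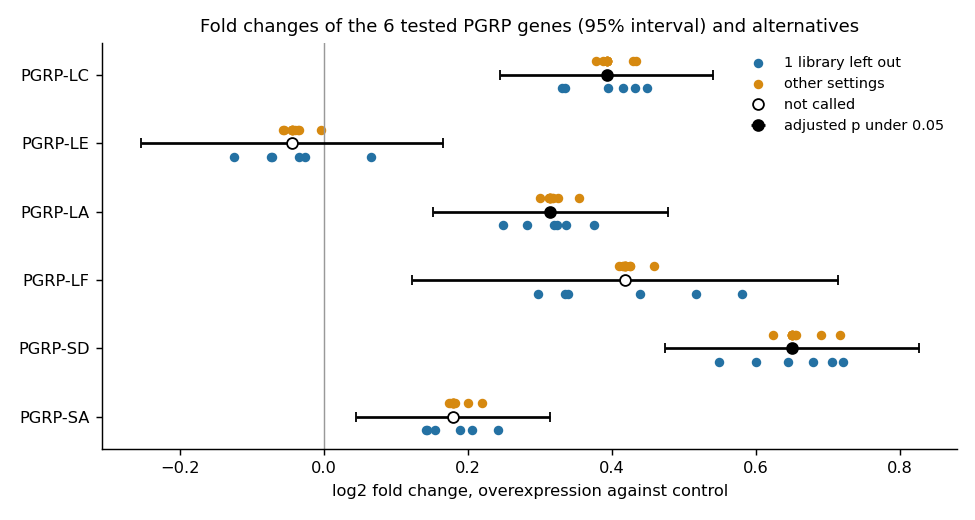
Log2 fold changes of overexpression against control (horizontal axis) for the 6 tested PGRP genes (vertical axis), with 95% intervals from limma in black, filled for an adjusted p under 0.05 and open otherwise. Blue points leave out 1 library each and orange points are the other alternative settings. All points of PGRP-SD, PGRP-LC, PGRP-LA, PGRP-LF and PGRP-SA lie above 0, and those of PGRP-LE lie on both sides, from -0.12 to 0.066.

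Levels between genes were compared per length, as FPKM computed from the recovered reads. In control flies the level was 414 ± 26.9 for PGRP-SD, 90.3 ± 3.40 for PGRP-SA and 33.8 ± 2.29 for PGRP-LC (SD, n = 3 each). PGRP-LF and PGRP-LA followed at 15.3 ± 2.28 and 15.0 ± 0.480, and PGRP-LE at 11.3 ± 0.341. The order was the same in the overexpressing flies, at 671 ± 86.4, 105 ± 7.81, 45.7 ± 3.65, 21.2 ± 3.89, 19.3 ± 1.73 and 11.3 ± 1.50 FPKM. PGRP-LF and PGRP-LA overlapped in both groups and were the only neighbours in this order that did. PGRP-SD made up 71.4% of the summed level of the 7 genes in control and 76.8% in overexpressing flies. Among all 13 PGRP genes only the amidase PGRP-SB1 had a higher mean level over the 6 libraries than PGRP-SD (1094 against 543 FPKM), and PGRP-SD ranked 199 of 15656 genes.

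**Figure D5:**
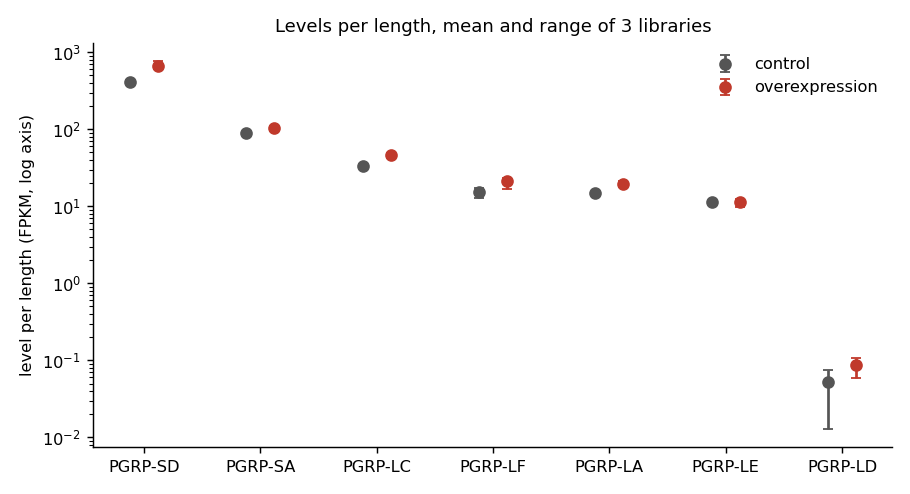
Level per length (vertical axis, FPKM, log axis) of the 7 PGRP genes (horizontal axis) in control (grey) and overexpression (red), as the mean of 3 libraries with bars from the lowest to the highest. The secreted PGRP-SD stands above the others at 414 and 671 FPKM, and PGRP-LD lies below 0.2 FPKM in every library.

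Within each group the PGRPs tended to be low or high in the same libraries. Control replicate 1 was the lowest control for 5 of the 6 tested genes and overexpression replicate 3 the lowest overexpression library for 5 of 6, PGRP-LE being the exception both times. The same libraries were lowest for Rel, the gene of Relish (5328, 6546 and 6119 normalized read counts in control and 7801, 9704 and 7293 in overexpression). They were also lowest for pirk, a negative regulator of Imd, the AMP genes AttC and Def, and the amidases PGRP-LB and PGRP-SB1. For the amidase PGRP-SC2 the lowest control was replicate 2. How often these libraries were lowest over all genes was not determined, so the pattern cannot be called particular to PGRPs or Rel. Over the 6 libraries, which include the group difference, the log2 levels of PGRP-LA, PGRP-LC and PGRP-SD had pairwise Pearson r of 0.98 to 0.99. PGRP-LE had a negative r with each of the other 5, from -0.58 to -0.16.

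The genes most like PGRP-SD over the 6 libraries were l(3)j2D3 (Pearson r = 0.997), Nnp-1 (0.996) and Fur1 (0.996). Those most like PGRP-LC were Cht11 (0.997), CG17209 (0.996) and yellow-f (0.996). These were the highest values among 13196 genes, over only 6 libraries in 2 groups. At the lower bar of an r of at least 0.9, 440 genes were reached for PGRP-SD and 397 for PGRP-LC.

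Neighbours of PGRP-LE and PGRP-SA on the X chromosome did not pass the test either. CG15602, 191 bases to the left of PGRP-LE, had a log2 fold change of -0.30 (limma adjusted p = 0.0604). The gene sd, 489 bases to its right, had 0.066 (adjusted p = 0.610). CG1572, 2988 bases to the left of PGRP-SA, had 0.025 (adjusted p = 0.840). RpII215, the gene of the largest RNA polymerase II subunit, which ends 20 bases from PGRP-SA, had -0.17 (adjusted p = 0.144). On the X chromosome as a whole, 5.14% of 2025 genes tested were called higher and 7.06% lower. Over all genes tested these shares were 3.18% and 5.24%.

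The other genes of these pathways gave the setting of the PGRP changes. Among the 6 amidase PGRPs, 5 were called higher and 0 lower, with a median log2 fold change of 0.97. The largest fold changes were those of PGRP-SC1a, PGRP-SB2 and PGRP-SC1b, at mean levels of only 1.32, 0.93 and 1.63 FPKM. The secreted PGRP-SC2 rose by 0.63 (limma adjusted p = 0.000194) and PGRP-LB, which degrades DAP-type peptidoglycan, by 0.57 (adjusted p = 0.00817, but 0.0591 without control replicate 1). From low levels, PGRP-SC1a rose by 2.04 (adjusted p = 0.00808) and PGRP-SC1b by 1.32 (adjusted p = 0.00287). PGRP-SB2 was called at 1.56 (adjusted p = 0.0378), but the call was lost without any 1 of the 6 libraries (adjusted p from 0.055 to 0.138) and in DESeq2 (0.0778). PGRP-SB1 lay near the threshold, at 0.35 (adjusted p = 0.0544), and passed in edgeR (0.0482) and in limma without overexpression replicate 3 (0.00141) or control replicate 2 (0.0291). It did not pass in DESeq2 (0.162), nor in limma when any other single library was left out (0.155 to 0.224). These 2 genes were named after their values were seen. Leaving out each library in turn gave 3 to 5 amidase calls, the fewest without control replicate 1. With a minimum mean of 5 FPKM, 3 amidase genes remained and 2 were called. Without the intensity trend, 3 of the 6 were called.

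Downstream of the receptors, 2 of 13 genes of the Imd cascade were called higher and 0 lower, with a median log2 fold change of 0.045. These were Rel, with 0.46 (limma adjusted p = 0.0115), and Diap2, the ubiquitin ligase of the pathway, with 0.21 (adjusted p = 0.0193). Both calls were lost without control replicate 1 (adjusted p = 0.0799 for Rel and 0.0995 for Diap2), and that of Diap2 also without control replicate 3 (0.0765) or overexpression replicate 2 (0.0508). Of 7 negative regulators of Imd, only pirk, which acts on PGRP-LC, was called, at 0.87 (adjusted p = 0.0053), and the median of that list was -0.0043. In the AMP list, 8 of 14 genes were called higher and 0 lower, with a median of 0.61.

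Of 11 genes of the extracellular Toll cascade, in which PGRP-SA and PGRP-SD act, 1 was called higher and 1 lower, with a median log2 fold change of 0.024. The serine protease gene Hayan had 0.36 (limma adjusted p = 0.0211) and GNBP3, a sensor of fungal glucan, had -0.34 (adjusted p = 0.00311). The call of Hayan was lost without control replicate 1 (0.112), control replicate 3 (0.0705) or overexpression replicate 2 (0.0551). None of 7 genes of the intracellular Toll pathway was called, with a median of -0.021.

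Markers of tissues that make PGRPs moved as well. In whole flies, fewer cells of a type and less RNA per cell cannot be told apart. All 3 fat body markers that could be matched by name were called lower. Their summed levels, mostly from Rfabg, were 41957 to 48030 normalized read counts in control and 29466 to 41482 in overexpression libraries. Rfabg itself only just passed (log2 fold change -0.42, limma adjusted p = 0.0489), and its groups overlapped. Of 4 tracheal markers, 2 were called lower (verm, log2 fold change -0.74, and serp, -0.67), with sums of 2958 to 3166 and 1936 to 2180. The other 2, btl (0.23) and trh (-0.0064), were not called (limma adjusted p = 0.219 and 0.949), so the fall was not shared by the whole list. Of 6 blood cell markers tested, 1 was called higher (Hml, log2 fold change 0.21) and 2 lower (NimC1, -0.56, and Pxn, -0.33), with a median of -0.094. Pxn only just passed (limma adjusted p = 0.0491), with overlapping groups. Sums over the 7 listed were 10212 to 10647 and 10578 to 11378, and Hml made up most of them. Of 6 digestive tract markers, 1 was called higher and 1 lower, with sums of 81472 to 89717 and 90329 to 91852. The largest part of these sums came from alphaTry, which was not called. No marker of these 4 lists was at 0 over all libraries, and their part in the PGRP results was not tested.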

How the data were processed

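The members and gene lists were chosen with earlier results of these data known. The authors aligned paired-end reads with HISAT2 (2.0.5 per their processing notes, which name dm6), counted reads per gene with featureCounts (1.5.0-p3) and used DESeq2. Neither the annotation release nor the settings for strand and shared exons were stated (not given in the sources used here). The deposited signal of each library is the read count divided by a size factor, although the table is named FPKM. Multiplied by that factor, 100% of values were whole numbers (tolerance 0.01). Another 5 deposited columns, with the authors' group means and their fold change and p-values, were not used. Replicates differed by more than sampling noise in every pair (chi-square per degree of freedom 5.05 to 8.99).

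Here log2(normalized count + 1) was fitted with limma 3.58.1 (R 4.3.3), with an intensity trend and no replicate block, over 13196 genes whose mean reached 0.5 FPKM, computed from recovered reads and deposited gene lengths. The deposited values are not counts, so limma was the main test. On the recovered reads edgeR 4.0.16 called 427 genes higher and 673 lower, and DESeq2 1.42.0 called 368 and 635. Within-library ratios were tested by exact permutation with scipy 1.17.1 under Python 3.11.15. Other alternatives were a pseudocount of 0.1, no filter or a minimum mean of 5 FPKM, quantile or library total scaling, no trend, array weights, a replicate block, limma voom and leaving out each library.

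Genes named are all 7 PGRPs, up to 4 genes of each pathway list (those called, then the most abundant), some marker genes, neighbouring and overlapping genes, and the 3 genes most like PGRP-SD and PGRP-LC. PGRP-SB1 and PGRP-SB2 were added after their values were seen. Of 15656 gene identifiers, 15153 had the same position in the reference annotation (BDGP6, the assembly of dm6), all 7 PGRPs included. 1 fat body marker was not matched by symbol or identifier, so whether it was measured under another name was not checked. A planned promoter motif search was not run, because no promoter sequence was used here.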

Additional observations from a re-analysis of the deposited data

How the results depend on the processing

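Over the 6 tested PGRPs and 18 alternatives each (108 values), 94 had the same direction and the same call, 7 calls were lost, 6 were gained and 1 value changed sign. Without the intensity trend, PGRP calls went from 3 to 0 (adjusted p = 0.059 for PGRP-SD, 0.106 for PGRP-LC and 0.13 for PGRP-LA, with the same fold changes), and over all genes limma called 94 higher and 99 lower in place of 420 and 691. Library total scaling called 632 genes higher and 503 lower. Leaving out each library in turn gave 2 to 5 PGRP calls (5 without overexpression replicate 3), 201 to 393 genes higher, 328 to 618 lower, and log2 fold changes of PGRP-LE from -0.12 to 0.066. The log2 difference of PGRP-LC to PGRP-LF ranged from -0.13 to 0.060 in the same way, turning positive without control replicate 1 (0.032) or overexpression replicate 1 (0.060), and the other 2 ratios kept their direction.

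No pairing of libraries by replicate number was seen in their correlations, but 3 libraries per group cannot settle this. Deviations of same-numbered libraries had correlations of -0.034, 0.052 and -0.036, and not every library correlated best with its own number. With the replicate number as a block, 517 genes were called higher, 846 lower and 4 PGRPs higher, the fourth being PGRP-LF (log2 fold change 0.42, limma adjusted p = 0.0321).

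PGRP-LD had 1 to 8 reads per library, whereas the other 6 had at least 313. Whether its low count came from depth, from low expression or from the counting of shared exons was not tested.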
